A study of Mus musculus with 48 samples.

Results

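The draining lymph node of a tumor holds activated CD4+ and CD8+ T cells side by side, and the T cell receptor (TCR) β chains of both subsets were sequenced here from the same nodes. The libraries compared were the 8 of CD4+ CD44hi cells and the 8 of CD8+ CD44hi cells, 16 of the 48 libraries of the series, chosen by their titles. They came from 4 mice (numbered 5 to 8), each with a left and a right brachial node, so that every CD4+ library had a CD8+ library from the same node. All mice were 8-week-old female C57BL/6 (C57BL/6J in the study's methods) that carried Lewis lung carcinoma (LLC), a transplantable mouse lung tumor line, under the skin on both sides of the back, and all nodes were taken on day 13 after inoculation. No untreated, tumor-free or CD44lo group was used here, so every value describes CD44hi cells of tumor-bearing mice. Sorted cells had not been stained by an antibody injected into the blood before euthanasia, lacked markers of B, myeloid and natural killer cells, and were positive for the TCR β chain. The other 32 libraries were CD4+ and CD8+ cells of the tumors of the same mice, and they enter only the last comparison.

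A TCR β chain gene is assembled in the thymus from 1 V, 1 D and 1 J segment, and bases are trimmed and added where the segments join. The joint codes for the third complementarity-determining region (CDR3), the loop of the β chain that lies over the peptide, whereas the V segment alone codes for the loops that lie mainly over the major histocompatibility complex (MHC) molecule. CD4+ T cells see peptide on MHC class II and CD8+ T cells on MHC class I, and CD44 is a surface adhesion receptor that is high on activated and memory T cells. Reads with the same V, the same J and the same CDR3 bases were taken as 1 clone. A share by distinct clones counts each clone of a library once, and so describes the set of receptors. A share by reads weights each clone by its abundance, and so also holds how far clones had expanded.

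The comparisons turn on a few segments, and the bases that they leave in the CDR3 are given first. Each sequence is the nearly untrimmed end of the segment, read as the most common base at each position over the clones of these libraries, 5′ to 3′ on the coding strand. A clone usually carries fewer of these bases, because ends are trimmed before they join. For V segments it starts with the codon of the first cysteine of the CDR3, and capitals mark a further cysteine or tryptophan codon.
TRBV12-1: tgtgccagctctctc
TRBV12-2: tgtgccagctctctc
TRBV17: tgtgctagcagtagaga
TRBV29: tgtgctagcagtttatc
TRBV14: tgtgccagcagtttct
TRBV31: tgtgccTGGagtc
TRBV2: tgtgccagcagccaaga
TRBV20: tgtggtgctaggga
TRBV1: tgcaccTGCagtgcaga
The first 5 of these were less used by CD4+ cells and the last 4 more used. TRBV12-1 and TRBV12-2 leave the same bases, so they can be told apart only upstream of the CDR3, and reads could be split between these close paralogs. For J segments the run ends with the last phenylalanine codon of the CDR3, and capitals mark a codon of an acidic residue, aspartate or glutamate.
TRBJ2-1: ataactatgctGAGcagttcttc
TRBJ2-7: gagctcctatGAAcagtacttc
TRBJ1-3: gaattctggaaatacgctctatttt
TRBJ2-4: ctagtcaaaacaccttgtacttt
TRBJ2-2: gcaaacaccgggcagctctacttt
TRBJ2-5: ttaaccaaGACacccagtacttt
The acidic codon stands among the last 4 codons in TRBJ2-1 and TRBJ2-7, just before them in TRBJ2-5, and is absent from the other three.

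The deposited libraries held 326582 to 1222582 reads for CD4+ cells and 1016113 to 1663878 for CD8+ cells. After an equal draw of 6 reads per sorted cell they held 10706 to 19357 and 29613 to 47049 clones. The 95% Wilson half-width of a named segment's share by distinct clones in 1 node was at most 0.734 percentage points for CD4+ and 0.467 for CD8+ libraries, which covers counting error only, because the reads carry no molecular identifiers. A pair of libraries stood apart. The CD8+ left node of mouse 5 and the CD8+ right node of mouse 8 had 23 clones in common above 0.02% of reads in both, which took 2.46% and 6.39% of their reads, with a median ratio of 2.60 between them (quartiles 2.33 and 2.79). The other 23 pairs of CD8+ nodes from different mice shared 0 to 3 such clones, and the 24 pairs of CD4+ nodes shared 5 to 13. The source of these clones was not tested. Counts of called V and J segments, CDR3 lengths and residues moved by at most 1 when these clones or these nodes were left out, and those of V-J pairs by at most 11.

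V segment usage by distinct clones differed between the subsets in 23 of 24 segments tested (95.8%; edgeR quasi-likelihood test with the mouse as a block, Benjamini-Hochberg adjusted p under 0.05). CD4+ clones used 14 segments more (58.3%) and 9 less (37.5%) than CD8+ clones, 22 of them in the same direction in all 4 mice (91.7%). For 19 segments (79.2%) the 8 CD4+ and the 8 CD8+ nodes did not overlap. TRBV8, the only segment found but not tested, had 0 of 118886 CD4+ clones, which allows a share of up to 0.00252%, and 1 of 289193 CD8+ clones. TRBV8 and, among the tested segments, TRBV22 and TRBV24 are annotated as pseudogenes. With nearly all segments called, the size of a difference says more than its call. Each share is a part of a whole, and scaling by trimmed mean of M-values (TMM) instead of library size moved the median log2 fold change over V segments from 0.42 to 0.12 and left 10 segments higher and 10 lower in CD4+ clones.

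The widest gap was that of TRBV12-2, a member of the pair known as Vβ5 (chr6:41118851-41119364, GRCm38). It was used by 1.62% to 2.23% of CD4+ clones in the 8 nodes (median 2.06%) and by 7.63% to 8.52% of CD8+ clones (median 8.00%). Every CD8+ node lay above every CD4+ node, the log2 fold change of CD4+ over CD8+ was -2.02 ± 0.04 (SE, n = 4 mice, adjusted p = 8.29e-13), and the share was 4.05 times as high in CD8+ clones.

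TRBV12-1, its close paralog (chr6:41113550-41114067), was used by 2.25% to 3.23% of CD4+ clones (median 2.73%) and 6.59% to 7.91% of CD8+ clones (median 7.50%), a log2 fold change of -1.43 (edgeR adjusted p = 2.09e-12). The TRBV12 pair together made up 4.73% ± 0.560 of CD4+ clones and 15.4% ± 0.755 of CD8+ clones (SD, n = 4). The median log2 fold change of the pair was -1.73, beside 0.42 over all 24 segments.

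TRBV17 (chr6:41163062-41163556) ranged from 1.08% to 1.23% of CD4+ clones (median 1.17%) and from 3.26% to 3.87% of CD8+ clones (median 3.57%), and was 3.07 times as high in CD8+ clones. TRBV29, the segment known as Vβ7 (chr6:41271394-41271881), ranged from 1.77% to 2.07% of CD4+ clones (median 1.94%) and from 5.51% to 5.95% of CD8+ clones (median 5.72%), and was 2.94 times as high. TRBV14 (chr6:41135145-41135616) ranged from 1.54% to 2.15% (median 1.93%) and from 4.78% to 5.03% (median 4.89%). In all 3 the nodes of the subsets were far apart, with log2 fold changes of -1.62, -1.56 and -1.37 and edgeR adjusted p of 1.69e-12, 9.63e-13 and 2.23e-11.

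On the CD4+ side TRBV31 had the largest fold. It is the V segment known as Vβ14 (chr6:41557691-41558452), it lies downstream of the J segments in the opposite orientation, and it therefore joins by inversion. It was used by 5.48% to 6.60% of CD4+ clones (median 6.09%) and 1.85% to 2.11% of CD8+ clones (median 1.97%), a log2 fold change of 1.61 ± 0.04 (SE, n = 4 mice, edgeR adjusted p = 2.09e-12). The lowest CD4+ node thus had a higher share than any CD8+ node.

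TRBV2, known as Vβ4 (chr6:41047340-41047995), was used by 3.66% to 4.10% of CD4+ clones (median 3.85%) and 1.504% to 1.76% of CD8+ clones (median 1.61%), with a log2 fold change of 1.26. TRBV20 (chr6:41188273-41188977) was used by 4.11% to 4.58% (median 4.42%) and 1.92% to 2.07% (median 1.96%), with a log2 fold change of 1.16. The minor segment TRBV23 (chr6:41216073-41216526) was used by 0.775% to 1.07% (median 0.939%) and 0.382% to 0.505% (median 0.453%), with a log2 fold change of 1.03. Again the nodes of the subsets did not overlap for any of the 3, and TRBV23 was rare in both (edgeR adjusted p = 2.73e-12, 3.68e-12 and 1.69e-09).

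The commoner segments differed by smaller folds. TRBV5, known as Vβ1 (chr6:41062332-41062803), was used by 8.11% to 8.61% of CD4+ clones (median 8.46%) and 4.33% to 4.85% of CD8+ clones (median 4.63%), 1.82 times as many. TRBV1, known as Vβ2 (chr6:40891229-40891885), was used by 7.64% to 8.54% (median 8.00%) and 5.50% to 6.18% (median 5.70%), a log2 fold change of 0.48 (edgeR adjusted p = 1.48e-08). TRBV13-2, known as Vβ8.2 (chr6:41121396-41121832), was the most used segment of both subsets by distinct clones, with 11.2% to 11.9% of CD4+ clones (median 11.5%) and 8.96% to 9.39% of CD8+ clones (median 9.20%). All of these were higher in CD4+ clones, and of these 3 the call of TRBV13-2 rested on the scaling, since its log2 fold change fell from 0.33 (adjusted p = 6.96e-08) to 0.03 with TMM factors (edgeR adjusted p = 0.617), while TRBV1 (0.18) and TRBV5 (0.56) stayed called.

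**Figure D1:**
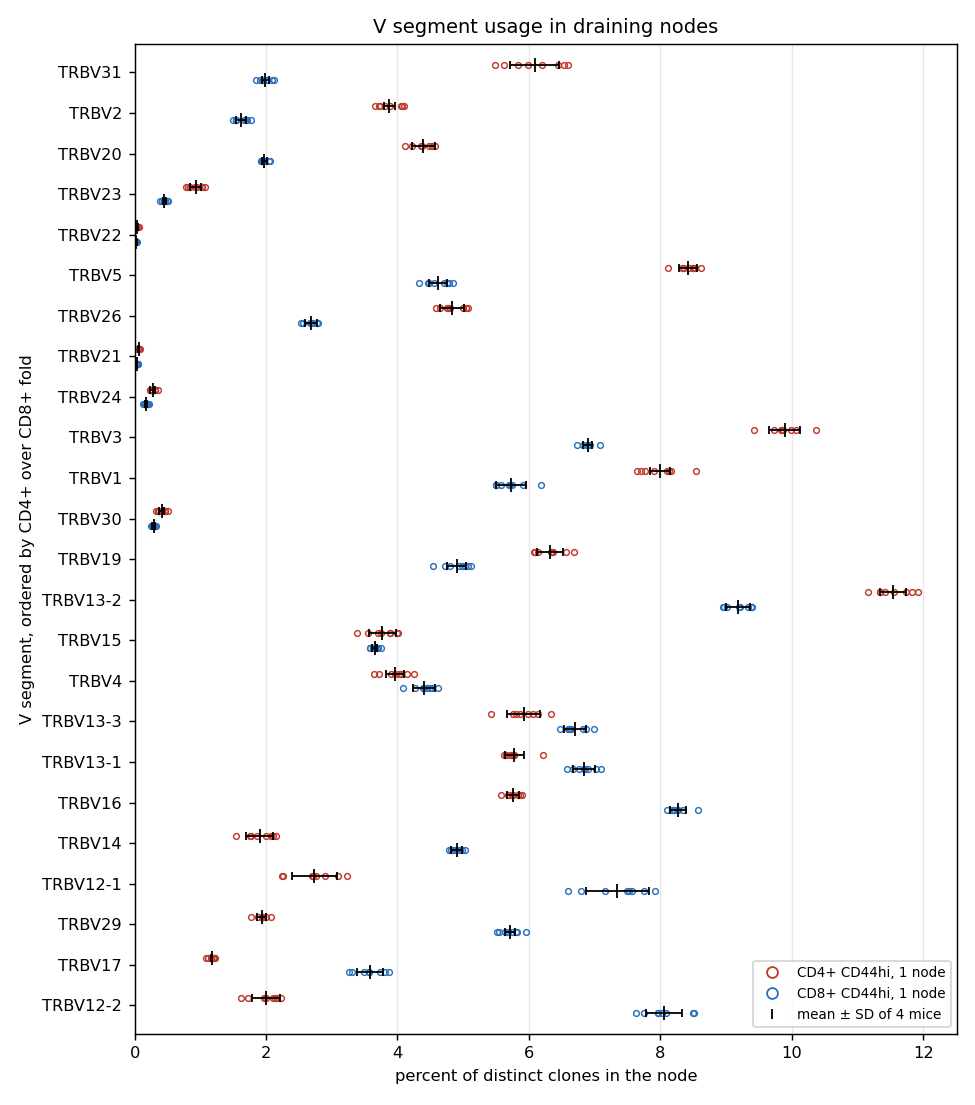
V segment usage by distinct clones, in percent of the clones of a node (horizontal axis), for the 8 CD4+ and 8 CD8+ libraries. Each open point is 1 node, bars are the mean ± SD of 4 mice, and segments are ordered from the highest CD4+ over CD8+ fold at the top; TRBV31 (medians 6.09% against 1.97%) and TRBV12-2 (2.06% against 8.00%) stand at the ends.

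By reads, 20 of 24 V segments were called (83.3%; 11, or 45.8%, higher and 9, or 37.5%, lower in CD4+ cells), and the nodes did not overlap for 15 (62.5%). With TMM factors 18 were called, 9 of them higher, and the median log2 fold change moved from 0.23 to 0.01. The segments that differed most by distinct clones also differed by reads. TRBV12-2 took 2.08% of CD4+ reads and 9.19% of CD8+ reads, and TRBV31 took 5.58% and 1.75%. TRBV1 was the named segment whose fold differed most between the 2 ways of counting. It held 11.6% to 14.4% of CD4+ reads (median 13.2%), well above its 8.00% of clones, and 5.80% to 7.39% of CD8+ reads (median 6.65%), so that its log2 fold change was 1.00 ± 0.05 by reads (SE, n = 4 mice, edgeR adjusted p = 3.81e-05) against 0.48 by clones. A TRBV1 clone had on average 1.65 times the reads of a mean CD4+ clone, and 1.15 times those of a mean CD8+ clone. Reads are made from TCR transcripts by an amplification that can favour some segments, and clone size, transcript level and amplification cannot be told apart here.

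The reverse held for TRBV19, chosen after its values were seen: 6.32% of CD4+ clones and 4.90% of CD8+ clones used it, but it held 3.19% and 3.18% of reads (log2 fold change -0.005, edgeR adjusted p = 0.968). Its clones were small in both subsets, with 0.504 and 0.649 times the mean reads per clone. By reads TRBV23 was uneven between mice. It took 2.27% and 2.52% of CD4+ reads in the nodes of mouse 6, where it formed the leading clone, 0.757% to 0.921% in the other CD4+ nodes, and on average 0.431% of CD8+ reads. Its log2 fold change was 1.34 (edgeR adjusted p = 0.016), 0.96 without mouse 6 and 1.40 without mouse 7, where the call was lost (adjusted p = 0.0521, edgeR).

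Segment groups are given by their counts and sums, to be read against the 58.3% of all V segments that were higher and the 37.5% lower in CD4+ clones. Of the TRBV13 family (Vβ8), TRBV13-2 was higher and TRBV13-1 and TRBV13-3 lower in CD4+ clones, and their sum was close in the subsets, 23.2% ± 0.343 and 22.7% ± 0.144 (SD, n = 4). Of the 5 segments that semi-invariant natural killer T cells use (the TRBV13 family, TRBV29 and TRBV1), 2 were higher and 3 lower, with sums of 33.2% of CD4+ and 34.2% of CD8+ clones. By reads the order of these sums was the opposite, 39.2% and 35.1%. The gate removed cells with a natural killer marker, and no marker of these cells is measured in TCR libraries. Of the 6 segments whose T cells are deleted by endogenous superantigens in mice with MHC class II I-E, a molecule that C57BL/6 lacks, 2 (TRBV24 and TRBV26) were higher, 3 (TRBV12-1, TRBV12-2 and TRBV16) lower and TRBV15 was not called. TRBV24 is annotated as a pseudogene in GRCm38 and was rare, with 0.275% of CD4+ and 0.172% of CD8+ clones. The group summed to 19.4% ± 0.562 of CD4+ clones and 30.2% ± 0.636 of CD8+ clones (SD, n = 4), and the TRBV12 pair made up most of that gap.

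J segment usage by distinct clones differed in 11 of 12 segments tested (91.7%), 8 higher (66.7%) and 3 lower (25.0%) in CD4+ clones, and for 7 (58.3%) the nodes did not overlap. TRBJ1-1 was not called, TRBJ1-7 with 1 clone was not tested, and no clone was assigned to TRBJ2-6. J segments lie in 2 clusters, each behind its own D segment. The folds were smaller than those of V segments, and the median log2 fold change of 0.14 over all J segments fell to 0.03 with TMM factors, under which 9 were called, 4 of them higher in CD4+ clones, and TRBJ2-3 was called in opposite directions, 0.07 by library size and -0.05 with TMM factors (edgeR adjusted p = 0.0357).

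TRBJ2-1 (chr6:41542754-41542803) differed most. It was used by 9.22% to 9.64% of CD4+ clones (median 9.41%) and 13.7% to 14.3% of CD8+ clones (median 13.9%), with no overlap and a log2 fold change of -0.57 ± 0.02 (SE, n = 4 mice, edgeR adjusted p = 2.76e-29). TRBJ2-7 (chr6:41543810-41543856), the most used J segment, was used by 18.8% of CD4+ and 21.4% of CD8+ clones, a log2 fold change of -0.18 (adjusted p = 6.15e-20, edgeR). These are the 2 segments printed above with the acidic codon among the last 4. Of the tested segments not printed, TRBJ1-1 and TRBJ1-2 carry it there too. TRBJ1-1 was level at 9.70% of CD4+ and 9.67% of CD8+ clones, and TRBJ1-2 was used by 5.30% and 5.65%.

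TRBJ1-3 (chr6:41534323-41534376) was used by 5.51% to 6.14% of CD4+ clones (median 5.84%) and 4.203% to 4.496% of CD8+ clones (median 4.32%), a log2 fold change of 0.43 (edgeR adjusted p = 2.67e-19). TRBJ2-4 was used by 9.95% and 8.33%, TRBJ2-2 by 6.07% and 5.15%, and TRBJ2-5 by 13.1% and 11.4%, with log2 fold changes of 0.26, 0.24 and 0.21. The 5 J segments whose CDR3 end holds no acidic codon (TRBJ1-3, TRBJ1-5, TRBJ1-6, TRBJ2-2 and TRBJ2-4) together made up 27.3% to 28.4% of CD4+ clones and 22.9% to 23.6% of CD8+ clones. As a whole the J1 cluster was used by 33.6% ± 0.670 of CD4+ and 31.2% ± 0.486 of CD8+ clones (SD, n = 4), with 4 of its 6 tested members higher, 1 lower and 1 not called. In the J2 cluster 4 of 6 were higher and 2 lower, so the share of higher members in each cluster equals the 66.7% over all J segments.

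By reads only 5 of 12 J segments were called (41.7%), 3 higher (25.0%) and 2 lower (16.7%) in CD4+ cells, and for 4 (33.3%) the nodes did not overlap. TRBJ2-1 held 9.34% and 14.6% of reads (log2 fold change -0.65, edgeR adjusted p = 1.13e-09) and TRBJ1-3 held 6.65% and 4.10% (log2 fold change 0.69, adjusted p = 6.54e-10 by edgeR). TRBJ2-4 and TRBJ2-2 were higher in CD4+ cells by reads too, with log2 fold changes of 0.31 and 0.29. The call of TRBJ2-7 (adjusted p = 0.0218, edgeR) was lost without mouse 6 (0.117) and without mouse 7 (0.0562), and TRBJ2-5 was not called by reads (edgeR adjusted p = 0.251; 0.0378 without mouse 8).

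**Figure D2:**
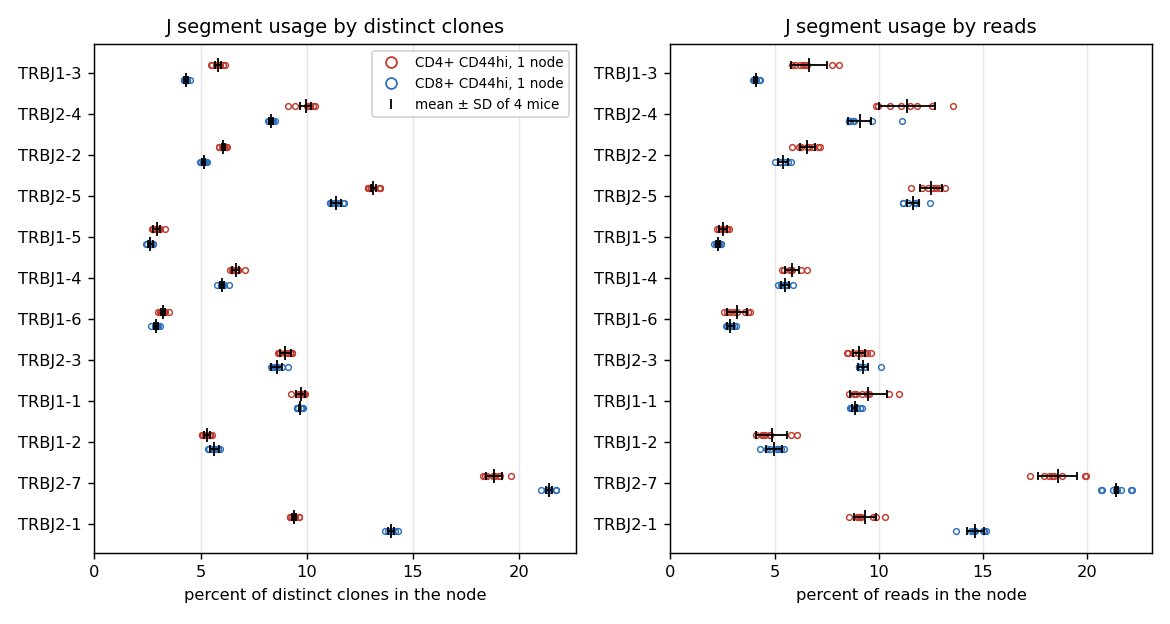
J segment usage in percent of the distinct clones (left) or of the reads (right) of a node. Each open point is 1 node and bars are the mean ± SD of 4 mice; by distinct clones TRBJ2-1 has the widest gap (medians 9.41% in CD4+ and 13.9% in CD8+), and the points spread more by reads than by clones.

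V-J pairs were tested next, to see whether the difference of a V segment was carried by particular J partners. Of 290 pairs found 251 passed the filter on low counts by distinct clones, and 205 of these were called (81.7%), 120 higher (47.8%) and 85 lower (33.9%) in CD4+ clones, 199 of them in the same direction in all 4 mice (79.3%). For 161 pairs (64.1%) the nodes did not overlap. With TMM factors, which moved the median log2 fold change from 0.22 to 0.01, 206 were called, 101 of them higher. The pair TRBV13-2 TRBJ2-7 was called in opposite directions under the 2 scalings, 0.10 by library size and -0.11 with TMM factors (edgeR adjusted p = 0.00435). By reads 175 of 269 pairs were called (65.1%), 89 higher (33.1%) and 86 lower (32.0%), 170 in the same direction in all 4 mice (63.2%), and for 117 (43.5%) the nodes did not overlap. With TMM factors that median by reads moved from 0.13 to 0.03.

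The pairs named by size of change were all lower in CD4+ clones and all held TRBV12-1, TRBV12-2 or TRBV17. TRBV12-2 TRBJ2-1 joined the V and the J segment with the lowest folds, and was used by 0.0772% to 0.247% of CD4+ clones and by 0.942% to 1.08% of CD8+ clones in the 8 nodes. Its log2 fold change was -2.82 ± 0.09 (SE, n = 4 mice, edgeR adjusted p = 4.09e-30), 7.05 times as high in CD8+ clones. TRBV12-1 TRBJ1-2 followed with -2.33 and 5.03 times. TRBV12-1 TRBJ2-1, not the next in rank, had a log2 fold change of -2.29. The other five, TRBV12-2 with TRBJ1-1, TRBJ2-2, TRBJ1-5 and TRBJ2-7 and TRBV17 with TRBJ2-1, had log2 fold changes from -2.32 to -2.25.

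Among 22 V segments with tested pairs, 7 had all of their pairs called in one direction, 11 had pairs called in one direction and others not called, and 4 (TRBV13-1, TRBV13-3, TRBV15 and TRBV4) had pairs called in both. All 12 tested pairs of TRBV12-2, TRBV14, TRBV17 and TRBV29 were lower in CD4+ clones, and all 12 of TRBV2, TRBV20 and TRBV31 were higher. TRBJ2-1, the J segment with the lowest fold, was still higher in CD4+ clones in 4 of its 22 tested pairs, lower in 10 and not called in 8. Across the 251 pairs, which share clones with the segments they are made of, the log2 fold change of a pair followed the sum of those of its V and J segment (Pearson r = 0.959), with a median absolute residual of 0.19. The pair furthest from that sum, by 1.31, and named after its values were seen, was TRBV12-1 TRBJ1-6. It was used by 0.135% of CD4+ and 0.130% of CD8+ clones, whereas the other 11 pairs of TRBV12-1 were lower in CD4+ clones.

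CDR3 length was counted in residues from the first cysteine to the last phenylalanine. CD4+ CDR3s were shorter. Their mean length by distinct clones was 13.75 to 13.82 residues in the 8 nodes (median 13.79), against 13.90 to 13.96 in CD8+ nodes (median 13.92). The difference was -0.14 residues (means of 4 mice 13.79 ± 0.02 and 13.93 ± 0.02, SD), in the same direction in 4 of 4 mice (exact permutation test over 70 splits of 4 against 4, two-sided, p = 0.0286, the smallest it can give). This p, and its adjusted value of 0.0286 over the 14 single values tested this way, is the same for every such value below unless another is given. These splits do not use the pairing of subsets by mouse. The paired test, which changes signs within mice, gives p = 0.125 for each of the 14 values (exact, two-sided), the smallest that 4 mice allow, and so passes for none.

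Among 13 length classes tested of 23 found, 8 were called (61.5%), 2 higher (15.4%) and 6 lower (46.2%) in CD4+ clones, and for 7 (53.8%) the nodes did not overlap. CDR3s of 13 residues made up 22.2% to 23.97% of CD4+ clones (median 22.8%) and 18.2% to 19.0% of CD8+ clones (median 18.6%), the largest gap in percentage points (edgeR adjusted p = 7.01e-05). The most common length, 14 residues, was level at 30.6% and 30.8% (adjusted p = 0.596, edgeR). On the long side 16 residues made up 7.05% of CD4+ and 9.42% of CD8+ clones, and classes 15, 17, 18 and 19 were lower in CD4+ clones as well, as was the rare class of 10. In sum, 39.7% of CD4+ and 34.6% of CD8+ clones had 13 residues or fewer.

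The joint itself was shorter. The number of bases between the last V base and the first J base, which come from the D segment and from added bases, was 9.16 to 9.27 in CD4+ nodes (median 9.22) and 9.64 to 9.80 in CD8+ nodes (median 9.68), a difference of -0.478 bases with no overlap. Clones with no such base were 1.26% ± 0.0377 of CD4+ and 0.913% ± 0.0319 of CD8+ clones (SD, n = 4). V-coded bases averaged 13.7 and 13.6 and J-coded bases 18.5 in both subsets, and neither difference passed the exact permutation test (p = 0.0571 and 0.229, two-sided), although V-coded bases were higher in CD4+ clones in 4 of 4 mice, by 0.04 ± 0.0142 bases (SD of the paired differences). When every V-J pair got the same weight in both subsets, the differences were -0.191 residues and -0.377 bases. Within the 256 V-J pairs compared one by one, CD4+ CDR3s were shorter in 198.

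**Figure D3:**
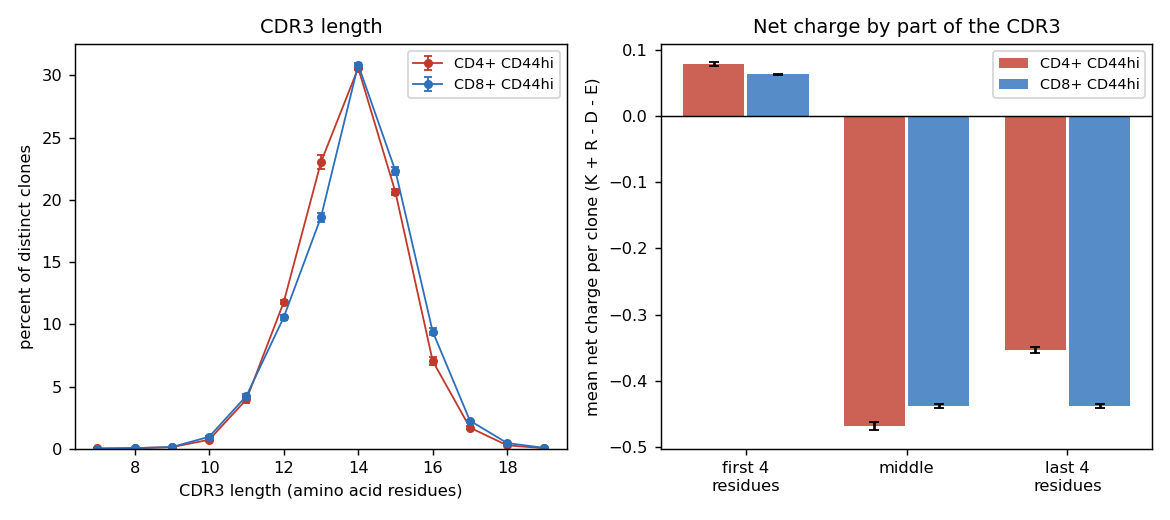
CDR3 length in residues against the percent of distinct clones (left), and mean net charge per clone in 3 stretches of the CDR3 (right), as the mean ± SD of 4 mice. CD4+ clones are higher at 13 residues and lower at 16 (7.05% against 9.42%), and their charge is higher in the first 4 and last 4 residues but lower in the middle (-0.469 against -0.438).

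Net charge was counted as lysine and arginine minus aspartate and glutamate. It was negative in both subsets and less so in CD4+ clones: -0.743 ± 0.0083 against -0.812 ± 0.00453 by distinct clones (SD, n = 4), a difference of 0.0693 with 8 of 8 nodes higher in CD4+. By reads the difference was 0.0788, and here the nodes overlapped. Clones with a net negative CDR3 made up 61.5% of CD4+ and 64.2% of CD8+ clones. The count of basic residues was level at 0.501 and 0.502 per CDR3, while acidic residues averaged 1.24 and 1.31.

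The sign of the charge difference depended on the stretch of the CDR3. The last 4 residues, mostly coded by the J segment, carried -0.354 in CD4+ and -0.438 in CD8+ clones, and the first 4 residues, mostly coded by the V segment, carried 0.0788 and 0.0633. The middle went the other way, with -0.469 in CD4+ and -0.438 in CD8+ clones, a difference of -0.0304 (exact permutation test, two-sided, p = 0.0286). At all 3 stretches the nodes of the subsets did not overlap. With equal weights for V-J pairs the difference over the whole CDR3 was 0.0434. Within the 256 pairs one by one CD4+ CDR3s had the higher charge in 121 and the lower in 135.

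Hydropathy was taken as the mean Kyte-Doolittle value, which is higher for water-avoiding residues, over the CDR3 without its first 4 and last 4 residues. It was lower in CD4+ clones, -1.16 ± 0.00799 against -1.04 ± 0.00459 (SD, n = 4) by distinct clones and -1.13 against -1.04 by reads, in 8 of 8 nodes. It depended on how segments were weighted. With equal weights for V-J pairs the difference shrank from -0.122 to -0.0246 by distinct clones and from -0.0890 to -0.0029 by reads, where it no longer passed the test (exact permutation p = 0.8, two-sided). Over the whole CDR3 it was -0.0112 by distinct clones and 0.0148 by reads, the opposite sign. A measure tied to single positions moved the same way. Clones with water-avoiding residues at both positions 6 and 7, which lie near the tip of the loop, made up 2.04% to 2.33% of CD4+ clones (median 2.15%) and 2.44% to 2.83% of CD8+ clones (median 2.63%), a difference of -0.488 percentage points with no overlap, or -0.522 with equal weights for V-J pairs.

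By single residues in the middle of the CDR3, 18 of 20 were called (90.0%), 7 higher (35.0%) and 11 lower (55.0%) in CD4+ clones, and for 15 (75.0%) the nodes did not overlap. Glutamine made up 7.11% to 7.47% of middle residues in CD4+ nodes (median 7.41%) and 5.57% to 5.68% in CD8+ nodes (median 5.61%), a log2 fold change of 0.39 (edgeR adjusted p = 1.46e-09). Tryptophan made up 2.01% to 2.16% and 2.74% to 2.90%, a log2 fold change of -0.43 (adjusted p = 8.76e-07, edgeR). Phenylalanine, tyrosine and histidine were lower in CD4+ clones as well, by -0.40, -0.25 and -0.23. Of the 7 aliphatic and aromatic residues 5 were lower, 1 (isoleucine) higher and 1 (methionine) not called in CD4+ clones, and they summed to 15.9% ± 0.162 and 18.6% ± 0.157 of middle residues (SD, n = 4). The acidic residues split, glutamate higher and aspartate lower, and of the basic residues 1 was lower and 1 not called. The call of aspartate was small and turned with the scaling: its log2 fold change was -0.03 by library size and 0.01 with TMM factors, called in both (edgeR adjusted p = 0.0391 with TMM).

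Cysteine had the largest fold, -1.43 (edgeR adjusted p = 1.91e-04), at low levels: 0.0155% of middle residues in CD4+ and 0.0421% in CD8+ clones. Counted per clone, a cysteine beyond residue 4 was found in 0.0873% ± 0.0153 of CD4+ and 0.248% ± 0.0283 of CD8+ clones (SD, n = 4). Any inner cysteine had the opposite order, 8.14% and 6.03%, and the end of TRBV1 printed above, used by 7.99% and 5.73% of clones, carries 1. Among residues coded wholly between the V end and the J start, which was looked at after the data were seen, glutamine stayed higher (0.40) and tryptophan (-0.34), tyrosine (-0.23) and leucine (-0.15) stayed lower in CD4+ clones. Both acidic residues were lower there, aspartate (-0.22) and glutamate (-0.11), as were valine (-0.24), histidine (-0.19), phenylalanine (-0.18) and proline (-0.08). Serine (0.20), threonine (0.08), alanine (0.08) and glycine (0.04) were higher there. Cysteine was not called (-0.49, edgeR adjusted p = 0.106).

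Diversity was compared on an equal draw of 169338 reads per library. CD4+ nodes held 10746 to 17896 clones (median 14212) and CD8+ nodes 27522 to 39859 (median 31509). The difference of the means, 14206 ± 2361 and 32061 ± 2192 (SD, n = 4), was -17855 clones, and every CD4+ node was below every CD8+ node. More CD8+ than CD4+ cells had gone into the libraries. At equal numbers of estimated cells, the difference was -7199 clones, in the same direction in 4 of 4 mice (exact permutation test, two-sided, p = 0.0286).

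CD4+ clones were also more unequal in size. Clonality, which is 0 where all clones are equally large and nears 1 where a few dominate, was 0.0763 to 0.108 in CD4+ nodes (median 0.0797) and 0.0313 to 0.0573 in CD8+ nodes (median 0.0341), and did not overlap. The Gini coefficient, another measure of unequal size, averaged 0.592 and 0.452. The most frequent clones that together held 50% of reads were 11.4% ± 1.02 of CD4+ clones and 20.4% ± 0.587 of CD8+ clones (SD, n = 4).

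The 10 most frequent clones held 3.29% to 5.05% of reads in CD4+ nodes (median 3.97%) and 0.536% to 5.34% in CD8+ nodes (median 0.842%). The subsets overlapped here through the CD8+ right node of mouse 8, one of those with common clones, and CD4+ was higher in 7 of 8 nodes. The difference of 2.43 percentage points was 3.12 without the common clones, and among right nodes alone it was 1.91 and did not pass the exact permutation test (two-sided, p = 0.143). The 100 most frequent clones held 15.04% ± 2.56 and 4.12% ± 1.57 of reads (SD, n = 4), a difference of 10.9, or 11.9 without the common clones. The single most frequent clone took 0.776% and 0.443% on average, a difference that did not pass the test (exact permutation, two-sided, p = 0.2). The CD8+ value rested on the common clones: without them it was 0.170%, the CD8+ nodes ranged from 0.088% to 0.242%, below the lowest CD4+ node (0.542%), and the difference of 0.606 passed (exact permutation, two-sided, p = 0.0286; chosen after the data were seen).

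By share of reads in the equal draw, CD8+ reads lay mostly in small clones and CD4+ reads more in larger ones. More cells had gone into the CD8+ libraries, so the same share stood for more cells there on average. These size classes were not computed at equal numbers of cells. Clones of 0.01% to 0.1% held 47.1% ± 3.02 of CD4+ reads, in 2323 clones per node, and 14.2% ± 1.92 of CD8+ reads, in 1020 clones (SD, n = 4). Clones of 0.1% and above held 11.8% and 1.33%, in 60.0 and 5.13 clones per node on average. Here too the CD8+ mean rested on the common clones, since the median CD8+ node had 0.245% and the highest, the right node of mouse 8, had 6.31%, and without these clones the mean was 0.400%, in 2.75 clones. The smallest clones, under 0.01%, held 41.1% of CD4+ and 84.5% of CD8+ reads. Clones seen with 1 read were 11.4% and 18.4% of clones in the equal draw, which gave CD8+ libraries fewer reads per sorted cell on average. At 6 reads per sorted cell they were 7.66% (6.30% to 8.55%) and 8.19% (7.27% to 9.00%), close and overlapping. In the equal draw every library had the same number of reads, so the mean number of reads per clone follows from the number of clones.

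**Figure D4:**
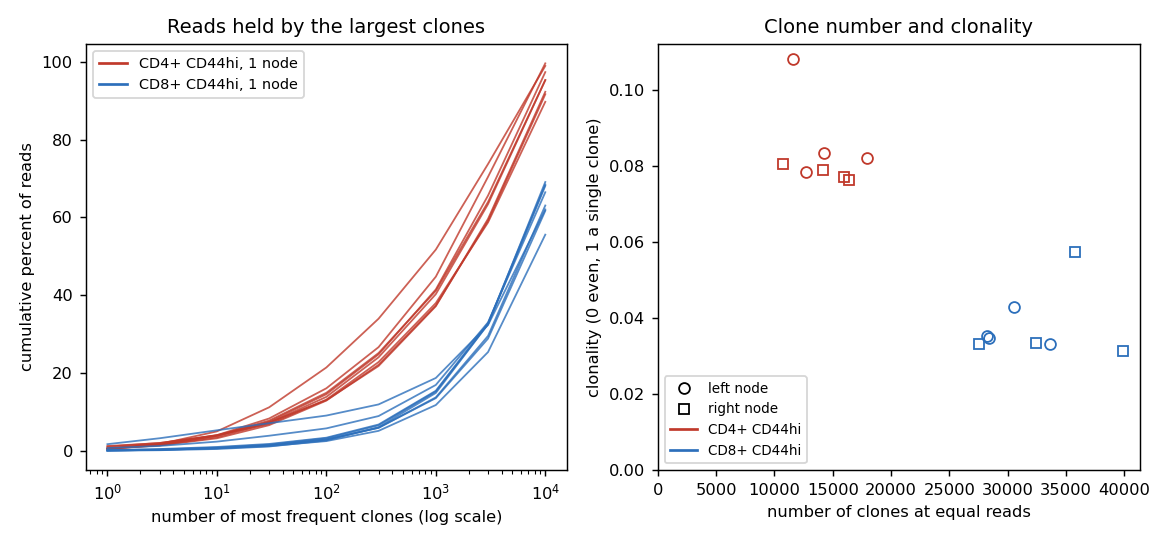
Cumulative percent of reads held by the most frequent clones, with 1 line per node and a logarithmic horizontal axis (left), and clonality against the number of clones with 1 point per node (right), both on the equal draw of 169338 reads. CD4+ nodes have fewer clones and a higher clonality (0.0763 to 0.108 against 0.0313 to 0.0573), and from 100 clones on their curves lie above all CD8+ curves.

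The largest clones show what these receptors look like. Printed are the leading clones of the mice, ranked by their mean share of reads in the left and right node, with the CDR3 from 5′ to 3′ and the bases between V end and J start in capitals.
CD4+ mouse 5, TRBV13-2 TRBJ1-3: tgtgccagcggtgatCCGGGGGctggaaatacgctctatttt
CD4+ mouse 6, TRBV23 TRBJ1-1: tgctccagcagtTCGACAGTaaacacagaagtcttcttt
CD4+ mouse 7, TRBV15 TRBJ2-7: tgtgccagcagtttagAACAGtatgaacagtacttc
CD4+ mouse 8, TRBV5 TRBJ1-2: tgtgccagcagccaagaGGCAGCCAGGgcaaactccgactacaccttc
CD8+ mouse 6, TRBV17 TRBJ2-7: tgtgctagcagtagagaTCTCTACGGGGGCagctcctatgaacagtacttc
CD8+ mouse 7, TRBV20 TRBJ2-2: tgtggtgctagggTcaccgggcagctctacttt
CD8+ mouse 5 and mouse 8, TRBV19 TRBJ2-4: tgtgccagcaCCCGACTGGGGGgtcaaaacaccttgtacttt
Each of the 4 CD4+ clones was large in both nodes of its mouse. They held 0.704% and 0.599% of reads (left and right node) in mouse 5, 1.10% and 1.31% in mouse 6, 0.555% and 0.517% in mouse 7, and 0.403% and 0.630% in mouse 8. Of their V segments TRBV13-2, TRBV23 and TRBV5 were higher in CD4+ clones, beside 58.3% of all V segments tested, and TRBV15 was not called.

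The CD8+ clones were smaller outside the common ones. They held 0.154% and 0.119% in mouse 6, with TRBV17, and 0.217% and 0.0565% in mouse 7, with TRBV20, a segment that few CD8+ clones used. A larger share of CD4+ than of CD8+ clones used TRBV20, and the same held for TRBV19. The TRBV19 TRBJ2-4 clone was 1 of the 23 common clones. It held 0.745% of reads in the left node of mouse 5 and 1.78% in the right node of mouse 8, and no read in the other node of either mouse. The CD4+ clones of mice 5, 6 and 8 and the 3 CD8+ clones had no read in the other subset of the same mouse, and the CD4+ clone of mouse 7 had at most 0.000187% there.

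CD4+ and CD8+ libraries of the same mouse shared more than those of different mice. Counting clones with the same V, J and CDR3 nucleotide sequence, the geometric mean of the percent of CD4+ reads and of CD8+ reads in shared clones was 2.66% ± 0.722 within a mouse (SD, n = 4, range 1.62% to 3.18%) and 1.70% ± 0.245 between mice (12 pairs, range 1.23% to 2.14%). The difference was 0.953 percentage points (exact permutation test over 24 pairings, one-sided, p = 0.0417, the smallest it can give). Shared clones numbered 792 within a mouse (512 to 1007) and 619 between mice (464 to 815), and took 5.11% of CD4+ reads within a mouse (2.72% to 7.09%) and 2.57% between mice (1.94% to 3.06%). On the CD8+ side they took 1.40% of reads within a mouse (0.969% to 1.75%) and 1.14% between mice (0.786% to 1.501%), and the ranges overlap on both sides. The sort was not perfectly pure by the labels, and the parts that sorting, library preparation and true sharing have in this difference were not tested.

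**Figure D5:**
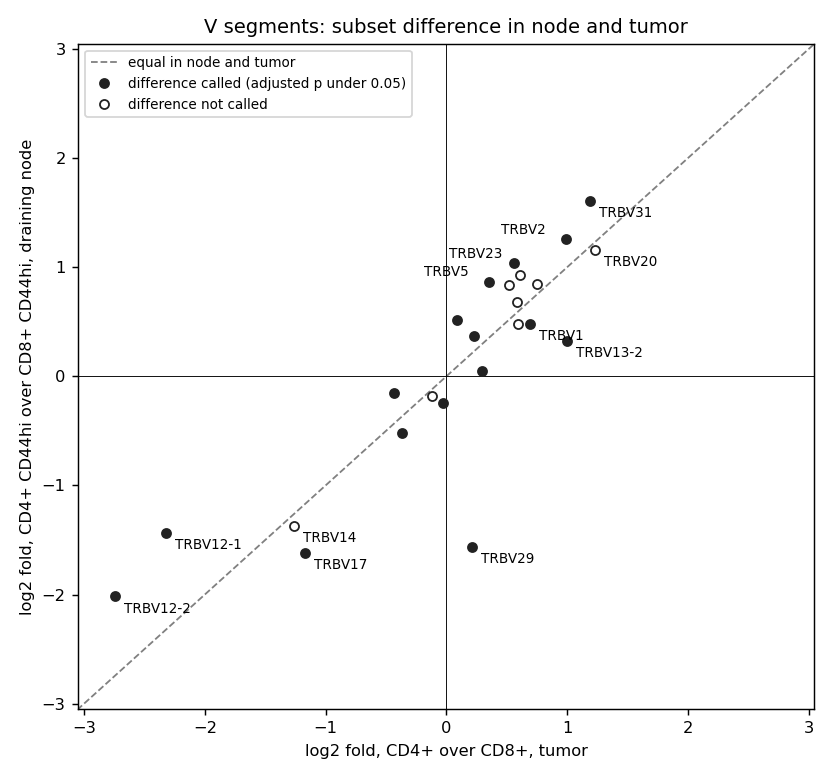
Log2 fold of CD4+ over CD8+ share by distinct clones for each of 24 V segments, in the tumors (horizontal axis) and in the draining nodes (vertical axis) of the same 4 mice. The dashed line marks equal folds and filled points are segments whose folds differed between tissues (edgeR interaction, adjusted p under 0.05); TRBV29 lies furthest from the line (0.21 in tumors and -1.56 in nodes).

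Last, the difference between subsets in the node was compared with that in the tumors of the same mice, as an interaction of tissue and subset. Tumor cells were sorted as CD4+ and CD8+ without the CD44 gate, so tissue and gate cannot be told apart. In addition, 2 fragments of each tumor were sequenced. Clones were counted once per library and summed per mouse. A clone found in several libraries thus counted up to 4 times in tumors and up to 2 times in nodes. The part that this has in the differences was not tested. The fold differed for 16 of 24 V segments (66.7%) and 8 of 12 J segments (66.7%). TRBV29 was lower in CD4+ clones in the node but not in the tumor, and its log2 fold change differed by -1.78 ± 0.08 (SE, n = 4 mice, edgeR adjusted p = 1.86e-14). It was used by 1.85% to 2.02% of CD4+ clones in the nodes of the 4 mice and 4.36% to 5.85% in their tumors, against 5.61% to 5.77% and 4.63% to 4.91% of CD8+ clones. The gap of the TRBV12 pair was wider in the tumor, by 0.73 for TRBV12-2 and 0.89 for TRBV12-1 on the log2 scale. TRBV13-2 was higher in CD4+ clones in both, by 0.33 in the node and 1.00 in the tumor, and it made up 11.5% of CD4+ clones in the node and 16.8% in the tumor, against 9.19% and 8.42% of CD8+ clones. For TRBV14 and TRBV20 no difference between tissues was called, and that of TRBJ2-1 was small (-0.07, edgeR adjusted p = 0.0109).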

How the data were processed

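TCR β libraries of sorted T cells were made from RNA and sequenced. The authors trimmed reads with Cutadapt 3.2 (per the submitters' processing notes), filtered them, assembled clones with MiXCR against IMGT segments with error correction, and deposited per clone a read count and its fraction of the library, with V, J, CDR3 sequence and segment ends. The deposited counts were not down-sampled. The fractions equal counts over library totals and were not used further. Here, 6 reads per sorted cell (cell numbers from the study) were drawn at random from each library without replacement, and equal draws of 169338 reads were used for diversity. Counts by distinct clones and by reads were summed per mouse over its left and right nodes and tested with edgeR 4.0.16 (R 4.3.3; quasi-likelihood, library sizes as totals, mouse as block because CD4+ and CD8+ libraries come from the same animal; features with at least 10 counts in 4 of 8 sums). Adjusted p-values (Benjamini-Hochberg) are over all features of a family. Single values used exact permutation tests (scipy 1.17.1). The SD is that between mice unless stated otherwise. An SE is the log2 fold change divided by the square root of the edgeR F statistic. Its variance estimate is moderated over the features of a family, so it is not the spread of the 4 mouse values. The text names up to 10 V segments, 6 J segments, 8 V-J pairs and 6 residues with the largest fold changes in the same direction in all 4 mice, the most used V segments and the top clone per mouse. Members and lists were chosen with earlier results of these data known. DESeq2 1.42.0, limma 3.58.1, TMM, other draws and filters, and leaving out each mouse were alternatives. On simulated counts for 251 V-J pairs by distinct clones, 38 of 40 pairs changed 2-fold were recovered, with 4 false among 42 calls. By reads, 29 of 40 over 269 pairs were recovered, with 2 false among 31 calls. The simulated counts followed the edgeR model, with as many pairs raised as lowered and no mouse effect. That setting differs from the data, where 205 of 251 pairs were called by distinct clones. Coordinates are GRCm38 (GENCODE), in which 38 of 38 segments matched. The D segment assignments were not used here.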

Additional observations from a re-analysis of the deposited data

Results flagged for a closer look

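Among 128 sets of 8 nodes (each single value, named segment, pair or residue in each subset), 15 had a highest or lowest node beyond Dixon's 95% critical value. Chance gives about 1 such set in 20, and the sets share libraries. The CD4+ left node of mouse 5 was the most unequal CD4+ library: its clonality was 0.108 (others 0.0763 to 0.0833), its Gini coefficient 0.645 (0.576 to 0.594), its 10 most frequent clones held 5.05% of reads (3.29% to 4.10%) and its 100 most frequent 21.5% (12.96% to 16.1%), 7.80% of its clones held 50% of reads (11.1% to 12.4%), and its mean net charge by reads was -0.693 (-0.771 to -0.738). The CD8+ right node of mouse 8, which holds common clones, had a clonality of 0.0573 (0.0313 to 0.0429), 5.34% of reads in its 10 most frequent clones (0.536% to 2.43%), 11.1% of reads with TRBJ2-4 (8.55% to 9.70%) and 7.29% with TRBV14 (5.30% to 6.18%). The largest common clone printed in the report is a TRBJ2-4 clone.

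The other values apart from their group were small shifts. The CD8+ left node of mouse 8 had a mean CDR3 length by reads of 13.94 residues (13.88 to 13.89). TRBV29 held 4.76% of reads in the CD8+ right node of mouse 5 (5.16% to 5.51%). TRBV12-2 TRBJ2-2 made up 0.541% of clones in the CD8+ left node of mouse 5 (0.421% to 0.476%). In the CD4+ left node of mouse 8 glutamine made up 7.11% of middle residues (7.35% to 7.47%) and tyrosine 4.48% (4.13% to 4.28%).

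The difference between subsets differed between node and tumor, by the interaction test (edgeR, adjusted p under 0.05), for 13 of the 18 named V and J segments, beside 66.7% of all V segments and 66.7% of all J segments tested. In log2 units, node minus tumor, it was more negative in the node for TRBV29 (-1.78), TRBV13-2 (-0.67), TRBV17 (-0.45), TRBV1 (-0.21) and TRBJ2-1 (-0.066). It was more positive in the node for TRBV12-1 (0.89), TRBV12-2 (0.73), TRBV5 (0.52), TRBV23 (0.48), TRBV31 (0.41), TRBV2 (0.26), TRBJ2-2 (0.18) and TRBJ2-5 (0.10). The tumor cells had no CD44 gate, so tissue and gate cannot be told apart. Clones found in several libraries of a mouse counted more than once, and the part of this was not tested.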

How the results depend on the processing

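Of 376 alternative values of the counts of called features and the single values, 371 kept direction and, where a test was possible, side of the threshold (counts: within 1.5 times). For single values, leaving out a mouse leaves 3 against 3, whose smallest p is 0.1, so these and the paired values kept direction only. The exceptions were net charge without the first 4 and last 4 residues, -0.0304 by distinct clones and -0.0135 by reads (exact permutation p = 0.0286 and 0.0857), hydropathy by reads with equal V-J pair weights (-0.0029) and over the whole CDR3 (0.0148), and the 10 most frequent clones in right nodes only (1.91). Of 1024 values for named segments, pairs and residues 6 lost and 1 gained the call. Without the mouse as replicate block, 22 V segments were called by distinct clones and 20 by reads, 11 and 5 J segments, 203 and 170 V-J pairs, 9 lengths and 18 residues. For the single values the replicate block leaves 16 sign changes, whose smallest p is 0.125, so it gives values but no test. Leaving out 1 mouse at a time gave 22 to 23 V segments by distinct clones and 18 by reads, 11 and 4 to 7 J segments, 197 to 206 and 146 to 159 V-J pairs, 8 to 9 lengths and 18 residues, and for the interaction with tissue 14 to 15 V and 7 to 9 J segments. DESeq2 called 22 V segments, 197 V-J pairs and 15 residues by distinct clones. Depth limits rare pairs and the smallest clones.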
